A study of Mus musculus with 14 samples.

Results

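The 6 microRNAs (miRNAs) described here, all of the mouse small intestine, are listed as mmu-mir-672-5p, mmu-mir-351-5p, mmu-mir-322-5p, mmu-mir-210-3p, mmu-mir-1224-5p and mmu-mir-139-3p. They were chosen by their measured levels: each of the 3 High libraries exceeded each of the 9 libraries of the Low, Sublow and Negative populations. They are 6 of 2030 entries in the table of small RNA sequencing values, and 6 of the 588 entries that reach the minimum level for testing, 10 reads per 1e+06 in 3 or more libraries. All cells came from C57BL/6J mice with a Sox9eGFP transgene, a reporter that makes cells fluoresce green where Sox9 is active. Cells of the small intestine were sorted by fluorescence into High (n = 3 libraries), Low (n = 3), Sublow (n = 3) and Negative (n = 3), and Non-sorted cells gave the remaining libraries (n = 2). The labels name no treatment and give neither the age nor the sex of the mice. Whether replicate libraries came from separate animals is not stated, so the spread behind each p-value may be technical. The transgene defines the groups by reporter brightness, so each population can hold more than 1 kind of cell.

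A miRNA is a short RNA cut from a hairpin precursor, and either arm of the hairpin, 5p or 3p, can be loaded into the silencing complex. Bases 2 to 8, the seed, pair with target messenger RNAs and largely set which messages are repressed, so miRNAs that share a seed can share targets. In Sox9 reporter mice, the enteroendocrine lineage has been placed among the brightest cells, and dim cells have been linked to crypt stem cells, very dim cells to dividing progenitors and cells without fluorescence to differentiated epithelium. Among the 6, miR-210 is known as a miRNA induced in low oxygen, and miR-1224 is a mirtron, a hairpin released by splicing of a short intron. miR-322 is the mouse counterpart of human miR-424 and is made from an X-linked cluster together with miR-503 and miR-351. miR-139 lies inside the phosphodiesterase gene Pde2a and has been studied in human colorectal tumours.

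The mature sequences are shown because the seeds decide which of the 6 could act on common targets and which other miRNAs of this epithelium could act on the same sites. All 6 names matched RefSeq on assembly GRCm38.p6, and each sequence runs 5′ to 3′ with the seed in capitals.
miR-672-5p: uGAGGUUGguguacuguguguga
miR-351-5p: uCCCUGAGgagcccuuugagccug
miR-322-5p: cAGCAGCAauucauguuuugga
miR-210-3p: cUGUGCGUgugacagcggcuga
miR-1224-5p: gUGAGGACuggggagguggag
miR-139-3p: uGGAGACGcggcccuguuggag

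No pair of the 6 shares a seed. The seeds of miR-210-3p, miR-1224-5p and miR-139-3p occur in no other of the 1679 mature mouse names in RefSeq. The miR-322-5p seed is held by 9 other names, among them miR-15a-5p, miR-15b-5p, miR-16-5p, miR-195a-5p and miR-497a-5p. The miR-351-5p seed is held by 4 others, miR-125a-5p, miR-125b-5p, miR-6367 and miR-6394, and the miR-672-5p seed by 1 other, miR-377-5p. In the GENCODE vM21 annotation of GRCm38, the hairpin of miR-1224 lies in an intron of Vwa5b2 on the plus strand of chromosome 16. The hairpin of miR-139 lies in an intron of Pde2a, and of the overlapping gene model Gm45837, on the plus strand of chromosome 7. The hairpin of miR-672 lies in an intron of Nexmif on the minus strand of chromosome X. The hairpins of miR-210, on the minus strand of chromosome 7, and of miR-322 and miR-351, on the minus strand of chromosome X, lie in no other annotated gene. Mir351 and Mir322 are separated by 1 gene in the RefSeq order, Mir503.

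Values are reads per 1e+06 miRNA reads (RPM), and the estimated depth was 1.89 to 16.4 M reads per library (M, 1e+06). The smallest value listed in each library was worth about 10 reads, so a listing at 0 means fewer reads than that and not absence. In High replicates 1, 2 and 3 that value was 0.76, 3.48 and 5.55 RPM, so a level listed in one can go unlisted in another. RPM adds up to the same total in every library, and fewer cells of a type cannot be told apart from less of a miRNA per cell. By the labels, High replicates 1 and 2 and Low replicates 2 and 3 are marked Combo with lane L000, and the lanes behind them are not named. High replicate 3 is alone on lane L008, and the other libraries carry lane L005 or L006, so lane and population cannot be told apart where High is set beside Sublow, Negative or Non-sorted cells. Of the 14 libraries, 7 list miR-295-3p, an embryonic stem cell miRNA, at 395 to 928 RPM and the other 7 list it at 0. The listing libraries are High replicate 2, Low replicate 2, Sublow replicate 2, Negative replicates 1 and 2 and both Non-sorted libraries. Neither state is thus confined to 1 sorted population. All libraries on lane L006 list it and none on lane L005 does, so among these the listing and the lane cannot be told apart. A lane term and a term for the listing are therefore not separate checks.

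The choice rule was met by 84 of the 588 entries (14.3%), of which 39 are entries at the annotated start of a mature miRNA and 45 start at a shifted base. The margin, taken as the lowest High library over the highest other sorted library, was 8.68 for miR-672-5p, 5.31 for miR-322-5p and 2.83 for miR-139-3p. It was 1.84 for miR-210-3p and 1.79 for miR-1224-5p, and no ratio can be formed for miR-351-5p because all other sorted libraries list it at 0. These margins chose the miRNAs and are given as a description, with no test. The 33 other annotated-start entries that meet the rule include the opposite arm miR-210-5p (7.76), miR-153-3p (2.74), miR-183-5p (2.58), miR-127-3p (2.39), miR-182-5p (2.29), miR-497-5p (1.78), miR-340-5p (1.70) and miR-375-3p (1.63). The remaining 25, with smaller margins, are miR-429-3p, miR-382-5p, miR-324-3p, miR-3099-3p, miR-137-5p, miR-200a-3p, miR-200b-3p, miR-541-5p, miR-744-5p, miR-326-3p, let-7e-5p, miR-1843-5p, miR-92b-3p, miR-324-5p, miR-125a-5p, miR-200a-5p, miR-200b-5p, miR-129-1-5p, miR-7a-2-3p, miR-129-2-5p, miR-99b-5p, miR-1843b-5p, miR-92b-5p, miR-30b-5p and miR-139-5p. Just inside the limit, miR-139-5p had 60.2 RPM in its lowest High library and 59.2 RPM in its highest other sorted library. Just outside it were miR-7a-1-5p (26248 RPM in High against 26665 RPM in another sorted library), miR-184-3p (258 against 263 RPM) and miR-532-5p (98.6 against 101 RPM). All 6 miRNAs reached the minimum of 10 RPM in 3 libraries, and miR-351-5p and miR-322-5p did so through the High libraries alone, so for these the filter itself required a difference.

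**Figure D1:**
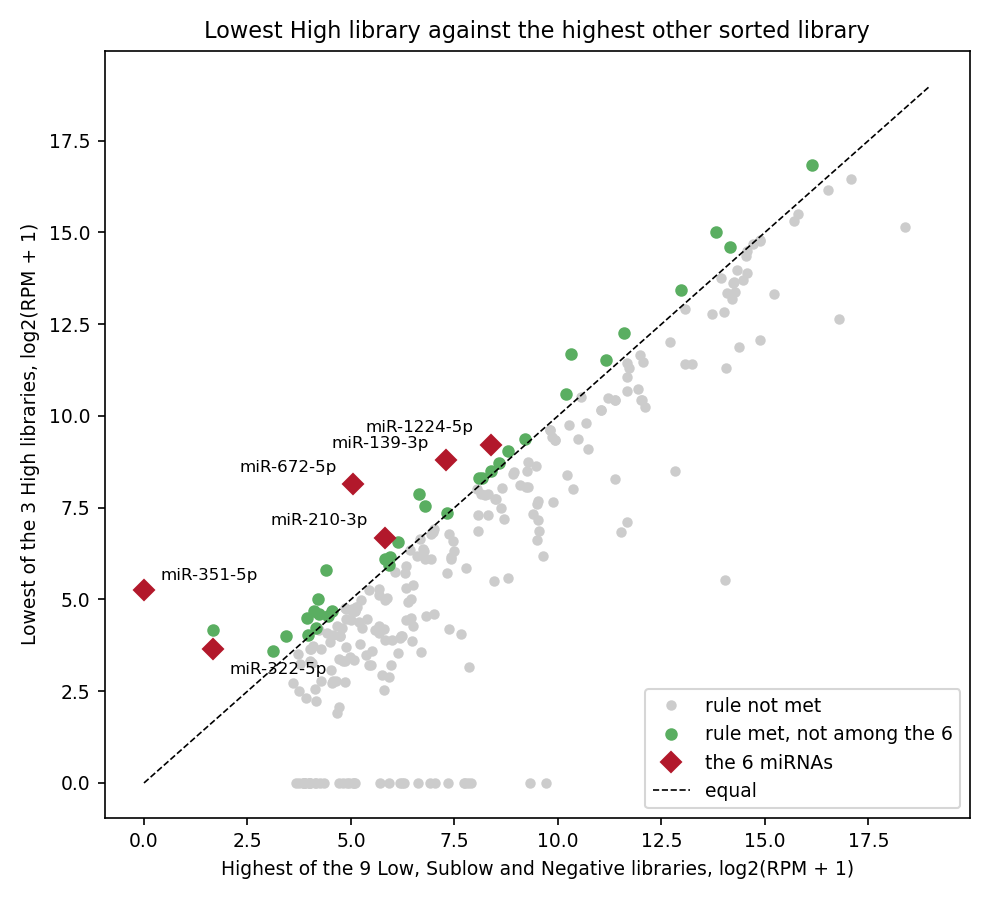
Each point is an annotated-start entry, with the highest of the 9 Low, Sublow and Negative libraries on the horizontal axis and the lowest of the 3 High libraries on the vertical axis, both as log2(RPM + 1). The 6 miRNAs (diamonds) lie above the dashed line of equal values, as the rule requires, and miR-351-5p sits at 0 on the horizontal axis while miR-1224-5p and miR-210-3p lie nearer the line.

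The intronic miR-672-5p had 309, 279.7 and 363 RPM in the 3 High libraries. It had 31.5, 32.2 and 27.8 RPM in Low, 11.5, 11.5 and 9.32 RPM in Sublow, 10.4, 6.71 and 2.37 RPM in Negative, and 31.3 and 13.9 RPM in Non-sorted libraries. The mean in High, 317 ± 42.3 RPM (SD, n = 3), was 10.4 times that in Low, 30.5 ± 2.36 RPM (SD, n = 3). Low lay above Sublow in every library, while the Sublow and Negative ranges overlapped, and the higher Non-sorted library was at the level of Low. In Negative, the 10.4 and 6.71 RPM belong to the 2 libraries that list miR-295-3p, both on lane L006. The 2.37 RPM belong to the library that does not list it, on lane L005. A fit with a term for that listing changed no call of miR-672-5p in the tests below, and the cause of the split was not tested.

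The hypoxia-linked miR-210-3p had 110.4, 102 and 126 RPM in High libraries. It had 10.4, 15.1 and 17.1 RPM in Low, 34.9, 55.6 and 39.5 RPM in Sublow, 25.7, 24.4 and 18.2 RPM in Negative, and 35.1 and 26.8 RPM in Non-sorted libraries. Low was therefore the lowest population for miR-210-3p, below Sublow and Negative in every library, whereas it was the second highest for miR-672-5p, miR-1224-5p and miR-139-3p. The High mean of 113 ± 12.3 RPM was 7.94 times the Low mean of 14.2 ± 3.44 RPM and 2.60 times the Sublow mean of 43.4 ± 10.8 RPM (SD, n = 3 each). Non-sorted cells, at 30.9 RPM on average, lay between Sublow and Negative, and their 2 values fell inside the Sublow range or between the 2 groups.

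The mirtron miR-1224-5p had 593, 1288 and 959.7 RPM in High libraries. It had 331, 181 and 294.5 RPM in Low, 6.26, 14.7 and 6.30 RPM in Sublow, 0, 0 and 1.44 RPM in Negative, and 18.2 and 13.2 RPM in Non-sorted libraries. It was the most abundant of the 6 in High and the most variable there, with a coefficient of variation of 36.7% against 10.9 to 17.0% for the other 5. The 4 sorted populations formed steps without overlap, of which the choice rule fixed the one from High to Low. The Low mean of 269 ± 78.1 RPM was 29.6 times the Sublow mean of 9.08 ± 4.86 RPM (SD, n = 3 each). The step between Sublow and Negative has no fixed size as a fold, since 2 Negative libraries list it at 0.

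The 3p arm of miR-139 had 469.8, 441 and 586 RPM in High libraries. It had 156, 107 and 132 RPM in Low, 42.6, 65.0 and 42.4 RPM in Sublow, 4.11, 5.29 and 5.19 RPM in Negative, and 49.7 and 45.8 RPM in Non-sorted libraries. The means were 499 ± 77.1 RPM in High, 132 ± 24.3 RPM in Low, 49.99 ± 13.0 RPM in Sublow and 4.86 ± 0.65 RPM in Negative (SD, n = 3 each). As with miR-1224-5p, no library of one sorted population reached the range of the next, which the choice rule fixed for High and Low. Both Non-sorted libraries lay inside the Sublow range.

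The X-linked miR-351-5p had 46.2, 50.1 and 37.0 RPM in High libraries and was listed at 0 in all 11 other libraries. Its neighbour miR-322-5p had 14.97, 16.4 and 11.6 RPM in High libraries, 2.19 RPM in Low replicate 3 and 3.92 RPM in Non-sorted replicate 1, and was listed at 0 in the other 9. The estimated reads behind these High values were 620, 144 and 70 for miR-351-5p and 201, 47 and 22 for miR-322-5p. The smallest value listed in a library outside High was 0.62 to 2.93 RPM, which is below every High value of both miRNAs. Fold changes are not given for either, since their level outside High is under what these libraries list.

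**Figure D2:**
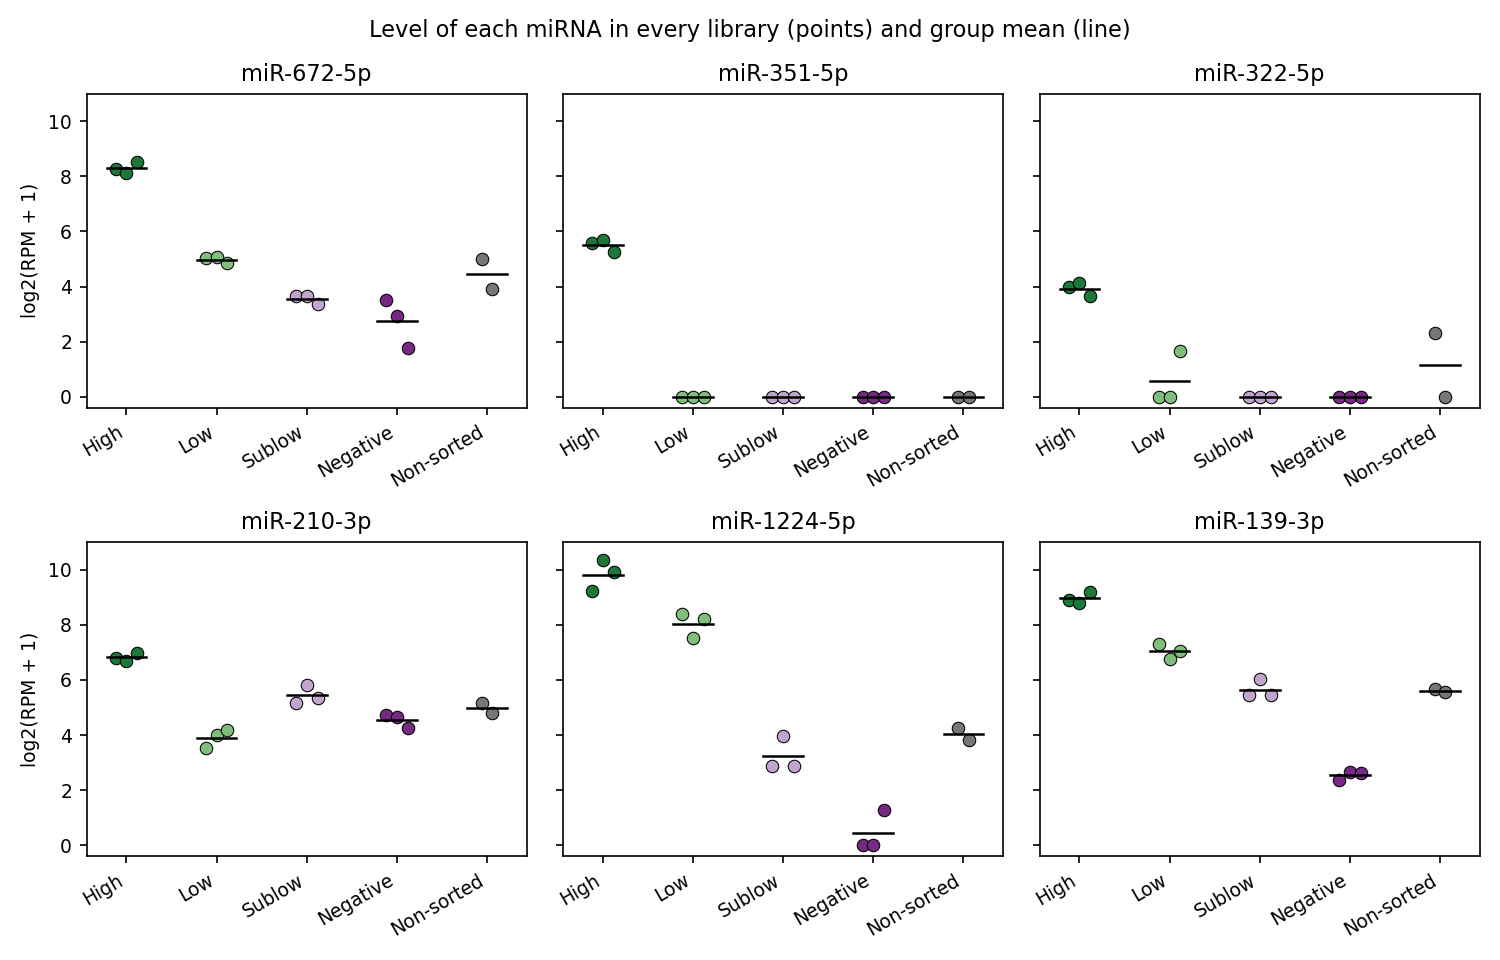
Each panel shows 1 of the 6 miRNAs, with the groups in the order High, Low, Sublow, Negative and Non-sorted on the horizontal axis and log2(RPM + 1) on the vertical axis, each point being 1 library and each bar the group mean. The High libraries are highest in all 6 panels, miR-1224-5p and miR-139-3p descend in steps through Low and Sublow to Negative, and miR-210-3p has its lowest points in Low.

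Summed over the 6 miRNAs, the level was 1544, 2177 and 2084 RPM in High, 528, 335 and 474 RPM in Low, 95.3, 147 and 97.6 RPM in Sublow, 40.1, 36.4 and 27.2 RPM in Negative, and 138 and 99.8 RPM in Non-sorted libraries. The sum was thus 0.154 to 0.218% of all miRNA reads in High cells.

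Tests were made only between populations the rule did not set against each other, with limma on log2(RPM + 1) and Benjamini-Hochberg adjustment over the 588 entries. miR-351-5p and miR-322-5p entered the fit through their High libraries alone and hold almost no values elsewhere, so they are given no test, and the counts are over the other 4 miRNAs. Low and Sublow cells differed in all 4, with 3 higher and 1 lower in Low. Over all 588 entries, 34.7% passed at an adjusted p of 0.05, with 24.3% higher and 10.4% lower in Low. The median difference of Low minus Sublow over all entries was 0.43 on the log2 scale. The largest was miR-1224-5p, higher in Low by 4.80 ± 0.45 (log2, SE; limma adjusted p = 1.17e-05). miR-672-5p was higher in Low by 1.42 ± 0.40 (limma adjusted p = 0.0166) and miR-139-3p by 1.39 ± 0.22 (limma adjusted p = 0.000422). miR-210-3p went the other way, lower in Low by a log2 difference of -1.54 ± 0.25 (limma adjusted p = 0.000544). Libraries of the 2 groups did not overlap for any of the 4, against no overlap for 47.8% of all entries. After median-ratio rescaling, which brings the median of all entries to 0.04, the differences were 4.40 for miR-1224-5p, 1.0 for miR-139-3p and -1.90 for miR-210-3p, all past the threshold. The miR-672-5p call was lost with median-ratio rescaling (1.04, limma adjusted p = 0.0890), with a lane term (1.74, limma adjusted p = 0.0515) and without Sublow replicate 3 (1.33, limma adjusted p = 0.0526). Within lane L005, which holds 1 Low and 2 Sublow libraries, the differences were 5.51 for miR-1224-5p, 1.52 for miR-672-5p, 1.85 for miR-139-3p and -1.74 for miR-210-3p.

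Low and Negative cells also differed in all 4, with 3 higher and 1 lower in Low, in a comparison where 66% of all entries passed (49.5% higher and 16.5% lower in Low, median 0.90). miR-1224-5p was higher in Low by 7.60 ± 0.45 (log2, SE; limma adjusted p = 3.76e-08), and with Negative libraries at 0, 0 and 1.44 RPM this size depends on the constant added, from 4.69 with 10 added to 10.03 with 0.1 added. miR-139-3p was higher by 4.49 ± 0.22 (limma adjusted p = 7.38e-09), a 27.1-fold ratio of mean RPM. miR-672-5p was higher by 2.24 ± 0.40 (limma adjusted p = 0.000414), or by 1.44 and 1.42 after median-ratio rescaling and quantile normalization and by 1.33 with 10 added. miR-210-3p was lower in Low by a log2 difference of -0.65 ± 0.25 (limma adjusted p = 0.0368), and this call was lost in 11 of 24 alternative settings. These were 10 added in place of 1 (-0.44, limma adjusted p = 0.0555), no filter (0.118), a filter of 100 RPM (0.0937), a replicate block (0.0534), a lane term (0.0812), a term for the miR-295-3p listing (0.0530) and the compared groups fitted alone (0.0817). The call was also lost without Low replicate 1 (-0.46, limma adjusted p = 0.139), Low replicate 2 (-0.71, 0.0528), Negative replicate 1 (-0.56, 0.118) or Negative replicate 2 (-0.60, 0.0990). It was larger with median-ratio rescaling (-1.48, limma adjusted p = 0.000309) and quantile normalization (-1.30, limma adjusted p = 0.00103). Within lane L005, with 1 library each, the differences were 7.09 for miR-1224-5p, 4.66 for miR-139-3p, 3.27 for miR-672-5p and -0.75 for miR-210-3p. Libraries did not overlap for any of the 4, against no overlap for 73.6% of all entries.

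Between Sublow and Negative cells, 3 of the 4 were higher in Sublow and none was lower, where 35.5% of all entries passed (26.9% higher and 8.67% lower in Sublow, median 0.37). miR-139-3p was higher in Sublow by 3.10 ± 0.22 (log2, SE; limma adjusted p = 9.31e-07), a 10.3-fold ratio of mean RPM. miR-1224-5p was higher by 2.80 ± 0.45 (limma adjusted p = 0.000444), or by 0.84 with 10 added and 5.08 with 0.1 added. miR-210-3p was higher by 0.89 ± 0.25 (limma adjusted p = 0.0145). That call was lost after median-ratio rescaling (0.43, limma adjusted p = 0.249) or quantile normalization (0.65, 0.0864), without a filter on low values (limma adjusted p = 0.0576), without Sublow replicate 2 (0.70, 0.0604) or without Negative replicate 3 (0.74, 0.0601). miR-672-5p did not pass (0.82 ± 0.40, limma adjusted p = 0.142), and it did without Negative replicate 1 (1.2, limma adjusted p = 0.0363). Its difference was 0.41 after median-ratio rescaling and 0.33 without Negative replicate 3. Sublow replicate 2, which lists miR-295-3p and is the Sublow library on lane L006, holds the highest Sublow values of miR-210-3p, miR-1224-5p and miR-139-3p. A term for that listing ended none of their calls between Sublow and Negative, and the cause of these high values was not tested. Within lane L005, with 2 Sublow libraries and 1 Negative library, the differences were 2.81 for miR-139-3p, 1.58 for miR-1224-5p, 0.99 for miR-210-3p and 1.76 for miR-672-5p. Within lane L006, with 1 Sublow library and 2 Negative libraries, they were 3.54, 3.97, 1.12 and 0.42 in the same order. Libraries of Sublow and Negative did not overlap for 3 of the 4, against no overlap for 51.2% of all entries. These 3 comparisons share libraries with each other, so their results are not independent.

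**Figure D3:**
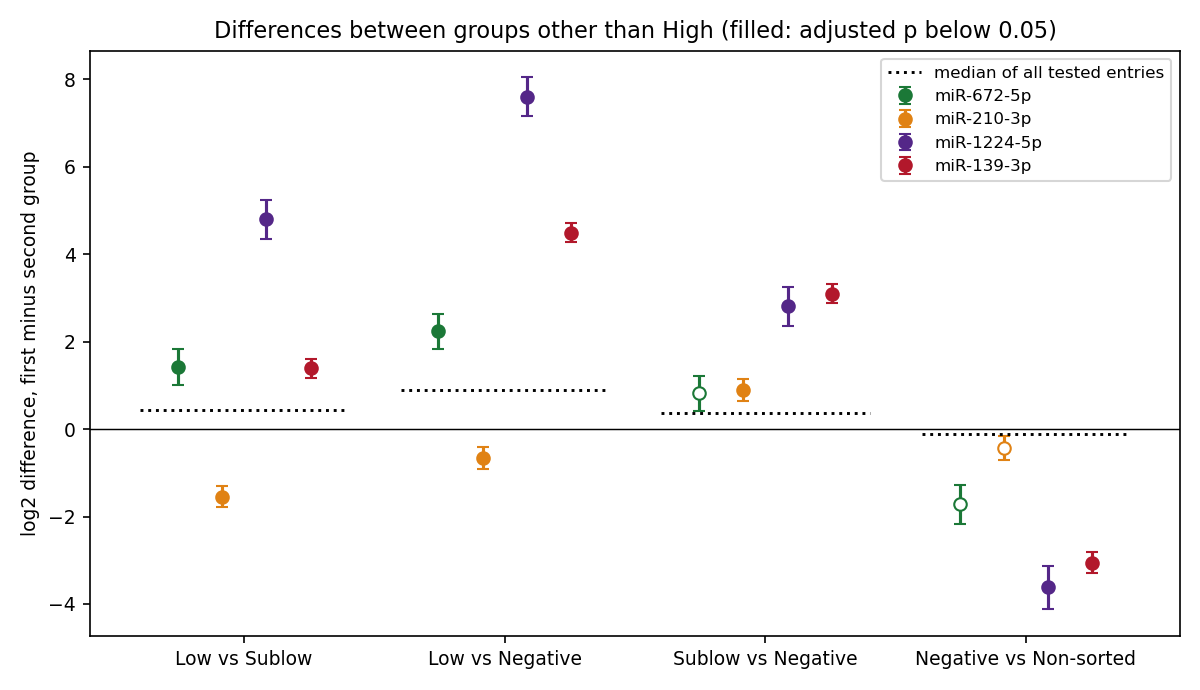
Log2 differences of miR-672-5p, miR-210-3p, miR-1224-5p and miR-139-3p in the 4 comparisons without High cells, first group minus second, from limma on log2(RPM + 1), with bars of 1 SE, filled points where the adjusted p over 588 entries is under 0.05, and a dotted line at the median of all entries. miR-1224-5p and miR-139-3p are higher in Low than in Sublow and Negative and higher in Sublow than in Negative, and miR-210-3p lies below 0 in both comparisons of Low.

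Negative and Non-sorted cells differed in 2 of the 4, both lower in Negative, where 3.74% of all entries passed, all of them lower in Negative (median -0.11). miR-139-3p was lower in Negative by a log2 difference of -3.06 ± 0.24 (limma adjusted p = 5.43e-06), and the Non-sorted mean was 9.81 times the Negative mean. miR-1224-5p was lower by a difference of -3.62 ± 0.50 (limma adjusted p = 0.000542), a call that was lost with 10 added (-1.29, limma adjusted p = 0.0641) and with the compared groups fitted alone (-3.62, limma adjusted p = 0.0974). The difference was -5.97 with 0.1 added. miR-672-5p did not pass (-1.72 ± 0.45, limma adjusted p = 0.0620), and it did without Negative replicate 1 (-2.11, limma adjusted p = 0.0168) or without Non-sorted replicate 2 (-2.28, limma adjusted p = 0.0290). miR-210-3p did not pass (-0.43, limma adjusted p = 0.655). Libraries did not overlap for any of the 4, against no overlap for 28.2% of all entries. Within lane L006, with 2 libraries each, the differences were -3.10 for miR-139-3p, -4.05 for miR-1224-5p, -1.23 for miR-672-5p and -0.28 for miR-210-3p.

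Opposite arms were listed for 4 of the 6 hairpins, and 2 of these passed the filter on low values. The 5p arms of miR-139 and miR-210 are the ones the arm comparison turns on, and their RefSeq sequences carry seeds unlike those of their 3p partners.
miR-139-5p: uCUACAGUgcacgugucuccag
miR-210-5p: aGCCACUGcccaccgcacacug

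miR-139-5p, the arm usually studied, was the lesser arm in every library that lists both. It had 96.1, 60.2 and 140.3 RPM in High, 59.2, 29.98 and 29.5 RPM in Low, 35.4, 27.9 and 33.1 RPM in Sublow, 0, 2.44 and 4.31 RPM in Negative, and 12.4 and 8.09 RPM in Non-sorted libraries. Its Low and Sublow libraries overlapped, and the limma difference of Low minus Sublow was 0.22 ± 0.55 (adjusted p = 0.770). It was higher than in Negative cells both in Low (3.87, limma adjusted p = 6.87e-05) and in Sublow (3.65, limma adjusted p = 0.000319). The ratio of 3p to 5p reads was 4.18 to 7.31 in High, 2.62 to 4.49 in Low, 1.2 to 2.33 in Sublow, 1.2 and 2.17 in the 2 Negative libraries that list both arms, and 4.02 and 5.66 in Non-sorted libraries. The 3 Low ratios lay above the 3 Sublow ratios, with a log2 difference of 1.18 (two-sided exact permutation test, p = 0.1, the smallest p that 3 against 3 allows).

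miR-210-5p had 23.0, 17.1 and 31.7 RPM in High libraries, 2.20 RPM in Sublow replicate 1 and 3.09 RPM in Non-sorted replicate 1, and was listed at 0 in the other 9. Low libraries, the lowest for the 3p arm, list none of the 5p arm. The 3p arm of miR-1224 reached 3.95 and 6.87 RPM in High replicates 1 and 3 and 3.10 and 6.89 RPM in Low replicates 2 and 3. The 3p arm of miR-322 had 3.13 and 3.83 RPM in High replicates 1 and 2 and was listed at 0 elsewhere. High replicate 3 lists no level under 5.55 RPM.

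**Figure D4:**
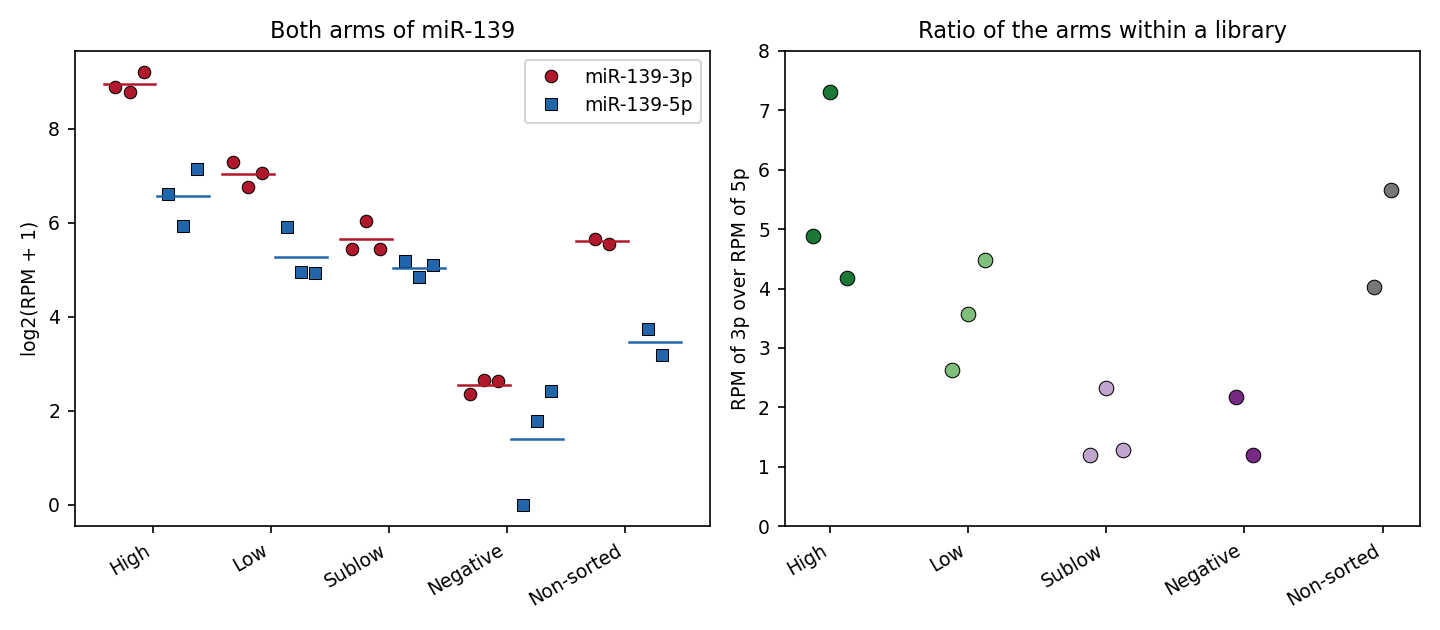
Left, levels of the 3p and 5p arms of miR-139 as log2(RPM + 1), each point 1 library and each bar a group mean. Right, the ratio of 3p to 5p RPM in the libraries that list both, for High, Low, Sublow, Negative and Non-sorted cells. The 3 Low ratios (2.62 to 4.49) lie above the 3 Sublow ratios (1.2 to 2.33), while the 5p arm itself overlaps between Low and Sublow.

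Forms that start at a shifted base made up a small share of these miRNAs. In High libraries the shifted share of miR-210-3p was 8.63, 8.72 and 6.64%, that of miR-351-5p was 2.51, 11.1 and 0%, and that of miR-139-3p was 2.50, 2.24 and 1.07%. A shifted start moves the seed. Shifted forms were at most 1.35% of miR-672-5p and at most 1.32% of miR-1224-5p in any library, and none was listed for miR-322-5p.

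The seed relatives are shown because miR-322-5p and miR-351-5p share bases 2 to 8 with them. Of these, miR-16, miR-497 and miR-125a-5p are listed at higher mean levels, and miR-125b-5p only in Low replicate 2. miR-503-5p is shown because it lies between Mir322 and Mir351 on the chromosome.
miR-16-5p: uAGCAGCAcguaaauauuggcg
miR-497a-5p: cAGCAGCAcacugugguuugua
miR-125a-5p: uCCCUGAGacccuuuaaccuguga
miR-125b-5p: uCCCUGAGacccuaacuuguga
miR-503-5p: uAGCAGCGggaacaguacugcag

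Of 12 names of the miR-15/16 seed group, alternative names included, 6 were listed. Their summed level was 2910 to 3308 RPM in High, 4732 to 5441 RPM in Low, 3395 to 4818 RPM in Sublow, 2566 to 3286 RPM in Negative and 2304 to 2716 RPM in Non-sorted libraries. This sum counts miR-16 once for each of its 2 hairpins, which give the same mature miR-16-5p, so the same reads may be counted more than once. Means of the copies were near equal, at 1473 and 1471 RPM in High and 2433 and 2431 RPM in Low. The Low range of the sum reached highest and overlapped that of Sublow, and the 14.97, 16.4 and 11.6 RPM of miR-322-5p in High were small beside the sum. Of the 5 entries that were tested, the copies of miR-16 among them, none passed between Low and Sublow (median 0.26 against 0.43 over all entries), 3 were higher in Low than in Negative (median 0.84 against 0.90) and 2, the copies of miR-16, were higher in Sublow than in Negative (median 0.58 against 0.37). None passed between Negative and Non-sorted (median 0.17 against -0.11). The copy listed as miR-16-1-5p had 1466, 1570 and 1385 RPM in High against 2644, 2365 and 2289 RPM in Low libraries, and was higher in Low than in Negative by 0.85 (limma adjusted p = 0.000292). The relative listed under the older name miR-497-5p had 39.3, 35.9 and 31.2 RPM in High, 17.5, 13.9 and 14.6 RPM in Low, 0, 12.6 and 1.59 RPM in Sublow, 8.02, 6.31 and 0.94 RPM in Negative, and 15.2 and 5.58 RPM in Non-sorted libraries, and it also meets the choice rule.

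miR-125a-5p, the relative of miR-351-5p with the higher level, had 367, 346 and 315 RPM in High, 274, 144 and 230 RPM in Low, 42.5, 25.2 and 28.6 RPM in Sublow, 4.11, 4.48 and 4.75 RPM in Negative, and 32.1 and 24.3 RPM in Non-sorted libraries. Its order was High, Low, Sublow and Negative, as for miR-1224-5p and miR-139-3p, without overlap between sorted populations. It was higher in Low than in Sublow by 2.70 (limma adjusted p = 1.33e-05) and higher in Sublow than in Negative by 2.57 (limma adjusted p = 1.42e-05). miR-125b-5p, which has been described in many tissues, was listed only in Low replicate 2, at 2.73 RPM for each of its hairpin copies. miR-351-5p itself was listed at 0 in Low, where miR-125a-5p had 144 to 274 RPM.

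**Figure D5:**
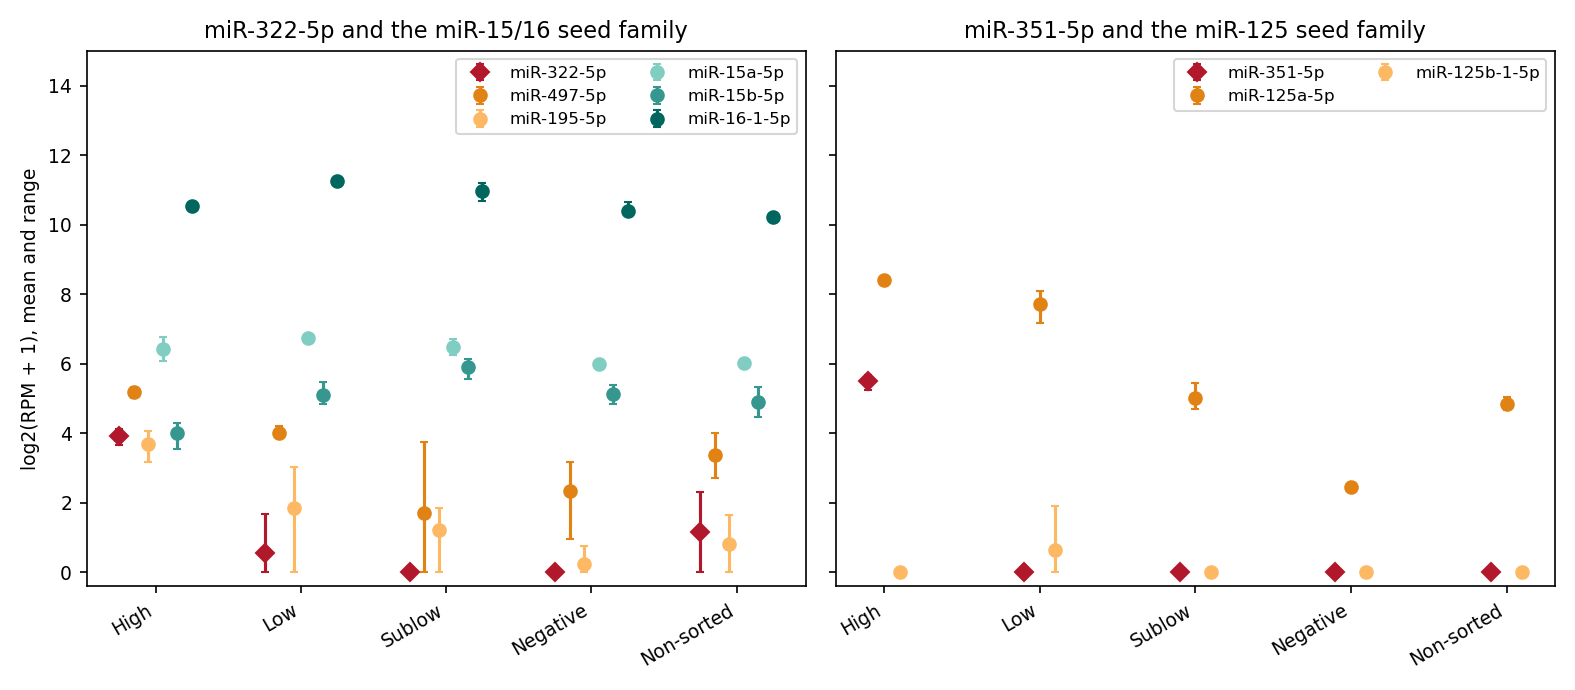
Levels of miR-322-5p and miR-351-5p (diamonds) and of listed miRNAs with the same seed (circles) as log2(RPM + 1), with the mean and the range over the libraries of High, Low, Sublow, Negative and Non-sorted cells and 1 hairpin copy drawn for miR-16 and miR-125b. miR-16-1-5p is far above miR-322-5p in every group, and miR-125a-5p descends from High to Negative while miR-351-5p is above 0 in High alone.

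The X-linked cluster was seen in High mainly through miR-351-5p and miR-322-5p. Of 15 names of cluster partners, alternative names included, 5 were listed and none passed the filter on low values. miR-503-5p, which has another seed than miR-322-5p, was listed only in High replicate 1, at 1.64 RPM, miR-542-3p only in High replicate 2, at 4.53 RPM, and miR-450b-3p only in High replicate 1, at 1.12 RPM. The 1.64 and 1.12 RPM lie under the smallest values listed in High replicates 2 and 3, 3.48 and 5.55 RPM. miR-450b-5p was listed only in Negative replicate 1, at 2.35 RPM. The summed partners came to 0 to 8.36 RPM in High, below the 11.6 RPM of the lowest High value of miR-322-5p.

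Patterns over the 14 libraries were compared by Pearson's r of log2(RPM + 1) with the annotated-start entries of other hairpins that passed the filter. These r values are a description, since the libraries share groups, lanes and a fixed total, and the rule itself makes the 6 alike in High. The pattern of miR-1224-5p was most like that of miR-92b-3p (r = 0.980), miR-125a-5p (0.977) and miR-132-3p (0.976). The pattern of miR-139-3p was most like that of the endocrine miR-375-3p (0.981), then miR-92b-3p (0.969) and miR-125a-5p (0.963). miR-672-5p was nearest to miR-340-5p (0.945), miR-429-3p (0.935) and miR-200a-3p (0.919). miR-351-5p was nearest to miR-210-5p (0.932), miR-322-5p (0.905) and miR-672-5p (0.898), and miR-322-5p to miR-210-5p (0.919), miR-351-5p (0.905) and miR-672-5p (0.903). Like miR-351-5p and miR-322-5p, miR-210-5p passed the filter through the High libraries alone. The r values among them thus rest on High against values at or near 0 elsewhere. miR-210-3p stood apart from the step-like pair, with r of 0.384 to miR-1224-5p and 0.538 to miR-139-3p, where those 2 had 0.959 to each other, and its nearest entries of other hairpins were miR-351-5p (0.836), miR-200a-5p (0.832) and miR-322-5p (0.764). Its own opposite arm miR-210-5p had 0.854 to it, and the 2 arms of miR-139 had 0.925 to each other.

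Marker miRNAs of cell types did not all run in the same direction as these levels. Endocrine miRNAs (8 of 12 names listed, counting alternative names, with miR-375 and the miR-183 cluster among them) summed to 210665 to 239873 RPM in High, 119892 to 144790 RPM in Low, 40441 to 43502 RPM in Sublow, 8904 to 10691 RPM in Negative and 23974 to 37258 RPM in Non-sorted libraries. The copies miR-7a-1-5p and miR-7a-2-5p are each counted. The cluster member miR-96-5p did not pass the filter, and its values are too near the smallest listed ones to show whether it descends from High. It was listed at 0 in 2 of the 3 High libraries, and High replicates 2 and 3 list no level under 3.48 and 5.55 RPM. With unlisted values as 0, it averaged 1.42 RPM in High, 3.73 RPM in Low, 2.38 RPM in Sublow and 0.35 RPM in Negative libraries. Of the 7 endocrine miRNAs tested, 7 were higher in Low than in Sublow and 7 higher in Low than in Negative, 6 were higher in Sublow than in Negative, and 5 were lower in Negative than in Non-sorted. The descent of miR-1224-5p and miR-139-3p runs beside that of these markers. That of miR-672-5p does so only as far as Sublow, since its Sublow and Negative libraries overlap. The part of the endocrine share in these descents was not tested. Intestinal epithelial miRNAs (9 of 10 names listed) summed to 201521 to 235198 RPM in High, 221481 to 250054 RPM in Low, 437099 to 456878 RPM in Sublow, 584881 to 590153 RPM in Negative and 511871 to 597473 RPM in Non-sorted libraries. This list split: 3 of the 9 were higher and 3 lower in Low than in Sublow, 6 higher and 3 lower in Low than in Negative, and 2 higher and 3 lower in Sublow than in Negative, with none past the threshold between Negative and Non-sorted. The 3 that were lower in Low than in Negative were miR-215-5p (-2.82, limma adjusted p = 3.1e-09) and both copies of miR-194-5p, while miR-200a-3p (0.89, limma adjusted p = 7.61e-05), miR-200b-3p (1.24, limma adjusted p = 1.28e-05) and miR-429-3p (0.65, limma adjusted p = 0.00091) were higher in Low and also meet the choice rule.

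Markers of cells outside the epithelium reached levels near those of the 6 miRNAs in some groups. Endothelial miRNAs (2 of 4 names listed) summed to 10.2 to 17.1 RPM in High, 0 to 12.6 RPM in Low, 0.98 to 5.96 RPM in Sublow, 0.81 to 5.09 RPM in Negative and 3.63 to 6.39 RPM in Non-sorted libraries. The defining miR-126-3p had 1.79 and 3.83 RPM in High replicates 1 and 2. It was listed at 0 in High replicate 3, where no level under 5.55 RPM is listed, and in all 11 other libraries. These values lie beside the High values of miR-351-5p and miR-322-5p, and their part in them was not tested. Mesenchymal and smooth muscle miRNAs (3 of 8 names listed) summed to 6.87 to 14.3 RPM in High, 11.6 to 56.1 RPM in Low, 18.3 to 31.3 RPM in Sublow, 11.9 to 26.5 RPM in Negative and 24.5 to 40.4 RPM in Non-sorted libraries, with miR-145-5p at 0 in all 14. Haematopoietic miRNAs (5 of 7 names listed) summed to 11.1 to 67.3 RPM in High, 42.4 to 213 RPM in Low, 11.7 to 161 RPM in Sublow, 6.51 to 103 RPM in Negative and 10.04 to 11.3 RPM in Non-sorted libraries, with miR-142-3p at 0 in all 14. The Low sums lie above the Low values of miR-672-5p and miR-210-3p. Of the 3 haematopoietic miRNAs tested, miR-155-5p was higher in Low than in Negative (2.08, limma adjusted p = 0.0366), at 103, 42.4 and 86.8 RPM in Low and 13.5, 6.51 and 46.7 RPM in Negative libraries, which overlap, and the other comparisons had no call. The part of these cells in the Low values of the 6 was not tested. Erythroid miRNAs (4 of 5 names listed) summed to 27.0 to 38.3 RPM in High, 11.9 to 32.4 RPM in Low, 9.72 to 29.4 RPM in Sublow, 9.88 to 33.9 RPM in Negative and 7.39 to 8.76 RPM in Non-sorted libraries, with miR-451 and miR-144-3p at 0 in all 14.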

How the data were processed

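Small RNA libraries were made from total RNA with a TriLink CleanTag kit, per the labels' protocols. The authors deposited 1 table of RPM for 2030 entries in 14 libraries, in which every library adds up to 1e+06. Of these, 534 carry the name of a mature miRNA alone and 1496 carry a signed number, which the header leaves undefined and which was read as a shifted start. The genome build is mm9, per the submitters' processing notes, while the aligner is not given in the sources used here. Coordinates are left out because the reference tables are of GRCm38.

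Steps between low values gave an estimated depth of 1.89 to 16.4 M reads, where M is 1e+06, with a median of 5.00, and 71.2 to 85.8% of low values were whole reads within 0.1, too few for a test on counts. The smallest listed value was 0.62 to 5.55 RPM, or 10.01 to 10.9 reads.

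Entries with at least 10 RPM in at least 3 libraries were fitted (588, of which 275 at the annotated start). The test was limma 3.58.1 in R 4.3.3 on log2(RPM + 1), a scale that understates changes of low entries, with 1 fit of 5 group means to 14 libraries, a mean-variance trend, two-sided tests and Benjamini-Hochberg adjustment over the 588 entries, called at 0.05. On simulated data for Low against Negative, it recovered 52% of log2 changes of 1 and 78% of changes of 2, with 2.3% of calls false. A difference of this size can thus go uncalled. Differences are first group minus second. High was tested against no group, because High values chose the miRNAs. Python 3.11.15 with matplotlib 3.10.9 made the plots.

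Same-numbered Low and Sublow libraries deviated together from their group means (r of 0.387, 0.713 and 0.628 for numbers 1, 2 and 3, all over 0.1), and the labels attach the same codes to these numbers. Libraries of different numbers were not compared, so these r values do not show that the libraries are paired. A fit with the number as a block changed no call on the 6 between Low and Sublow.

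Entries named are the 6, their other arms and shifted forms, the listed members of the seed, cluster and marker lists, the 3 most alike entries for each, all annotated-start entries that meet the choice rule and the 3 just outside it. The 6 and the lists were chosen with earlier results of these data known. Some lists hold alternative names of a miRNA, so an unlisted name is not always a missing miRNA. Alternatives were the constant added, the filter, rescaling, the covariates, the groups fitted and leaving out each library.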

Additional observations from a re-analysis of the deposited data

How the results depend on the processing

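Under 24 alternative settings of each comparison, no difference of miR-672-5p, miR-210-3p, miR-1224-5p or miR-139-3p between Low, Sublow, Negative and Non-sorted cells changed direction, and miR-351-5p and miR-322-5p, nearly all at 0 there, were not run singly. All calls of miR-139-3p (4 comparisons), of miR-1224-5p among Low, Sublow and Negative, of miR-210-3p in Low against Sublow and of miR-672-5p in Low against Negative were made in all 24, and the settings that ended others stand beside them in the report. The filter of 100 RPM kept miR-210-3p and miR-672-5p through their High libraries alone, so that setting is no independent check on them. miR-139-3p differed by 1.99 in Sublow against Negative and by -1.96 in Negative against Non-sorted with 10 added. With a lane term, 130 entries passed in Low against Sublow (204 in the fit without it). With a filter of 100 RPM, 198 passed in Low against Negative (388 with 10 RPM). With the compared groups fitted alone, 9 passed in Negative against Non-sorted (22 with all groups). In that comparison 1 of the 4 miRNAs passed with 10 added and 1 with the compared groups alone, against 2 in the main setting. Leaving out 1 library at a time, 163 to 215 entries and 3 to 4 of the 4 passed in Low against Sublow, 340 to 410 and 3 to 4 in Low against Negative, 179 to 225 and 2 to 4 in Sublow against Negative, and 20 to 33 and 2 to 3 in Negative against Non-sorted, while all 6 met the choice rule whichever sorted library was left out. Where the Non-sorted group was left with 1 library, that library was assumed to vary like the other groups.

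With the replicate number as a block, 220 entries and 4 of the 4 passed in Low against Sublow, 396 and 3 in Low against Negative, 228 and 3 in Sublow against Negative, and 26 and 2 in Negative against Non-sorted. The 1 call that the block ended was miR-210-3p in Low against Negative (limma adjusted p = 0.0534), a pair of groups in which same-numbered libraries did not all deviate together (r of -0.211, 0.677 and 0.554). They did not in Sublow and Negative (-0.354, 0.755 and 0.776) or in Negative and Non-sorted (0.110 and -0.0150) either. The -0.211 and -0.354 are of number 1, where the Negative library lists miR-295-3p and the Low and Sublow libraries do not. The part of that listing in these r values was not tested. Median-ratio rescaling brought the median difference of all entries to 0.04 (0.43 as deposited) in Low against Sublow, 0.08 (0.90) in Low against Negative, 0 (0.37) in Sublow against Negative and -0.02 (-0.11) in Negative against Non-sorted. Entries that passed, higher then lower in the first group named, were 143 higher and 61 lower in Low than in Sublow as deposited, 68 and 86 after median-ratio rescaling and 77 and 82 after quantile normalization. For Low against Negative they were 291 and 97, then 131 and 136, then 166 and 119. For Sublow against Negative they were 158 and 51, then 68 and 75, then 91 and 55. For Negative against Non-sorted they were 0 and 22, then 5 and 20, then 3 and 19. Depth limits miR-351-5p and miR-322-5p, which fall below about 10 reads in nearly all libraries outside High. The cause of these changes was not tested.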
